A study of Mus musculus with 4 samples.

Results

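Effector CD8 T cells of the lung were picked out of sequenced leukocytes by a rule on their RNA. A barcode, which tags the RNA of 1 droplet, was a member when it had at least 200 genes, at most 10% mitochondrial UMIs (unique molecular identifiers, each standing for 1 captured RNA molecule) and at least 1 UMI over Cd3e, Cd3d and Cd3g, chains of the T cell receptor complex. It also needed at least 1 UMI over Cd8a and Cd8b1, 0 UMIs of Cd4, of the B cell gene Cd79a and of the macrophage gene C1qa, and at least 3 UMIs summed over the 5 effector genes Gzmb, Ifng, Cxcr6, Nkg7 and Ccl5. The rule found 655 members among 18985 filtered barcodes: 375 of 8944 in the wild-type library and 280 of 10041 in the Plaur knockout library. The members were thus chosen by the UMIs of these genes, whose levels describe the choice and support nothing.

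The cells came from C57B6/J wild-type mice and from Plaur-/- mice, a knockout of the gene of the urokinase receptor uPAR. Both genotypes were sensitized with LPS and ovalbumin on days 0 and 7 and received aerosolized ovalbumin on day 14, so all cells come from allergen-challenged animals. Digested lungs were sorted for CD45.2, and each genotype gave 1 RNA library (10x 3' tags) with the counts of 5 surface antibodies. The labels give 8 mice for each genotype but no number for a single library, and the labels call the cells both circulating leukocytes and a lysate of the whole lung. The libraries are called WT-labelled and KO-labelled, because members of the latter held Plaur RNA. Of 2 levels, counts or shares joined by "and", the first belongs to the WT-labelled library and the second to the KO-labelled one, and a log2 ratio sets the second over the first. With 1 library per genotype no difference has a replicate check and none was tested. Ranges after a share, a level or a log2 ratio are 95% intervals for counting error only, and CPM are the UMIs of a gene scaled to 1000000 UMIs over the summed cells.

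CD8 T cells recognise peptides on MHC class I molecules. Once activated they fill granules with granzymes and perforin for killing and secrete interferon-gamma and the chemokines CCL3, CCL4, CCL5 and XCL1. In the lung, some of them stay in the tissue, marked by CXCR6 and the integrin CD49a (Itga1). Others recirculate, marked by KLRG1 and the lipid receptor S1PR5, and naive cells carry the homing receptor CCR7.

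Some members held the RNA of a myeloid cell as well. Over 25 genes of neutrophils, macrophages, monocytes and MHC class II, 46 WT-labelled members (12.3%, 9.12% to 16.0%) and 61 KO-labelled members (21.8%, 17.1% to 27.1%) had 20 UMIs or more. Few lay near that limit: 4 and 2 members had between 5 and 19 such UMIs. The members with myeloid RNA had median depths of 8864 and 11082 UMIs, against 3410 and 3140 in the other 329 and 219 members. Scrublet called 19 and 31 of them doublets, and 0 and 1 of the others. Their median CD11b antibody count was 128 and 155 UMIs, against 4 and 5. S100a9, a neutrophil gene among those 25, stood at 3897 and 13114 CPM over all members. Over those with little myeloid RNA, chosen in part by this gene, it stood at 35.3 and 97.8 CPM. Values below are for the members with little myeloid RNA unless all members are named. The libraries shared 16 barcodes, 0 of them members.

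**Figure D1:**
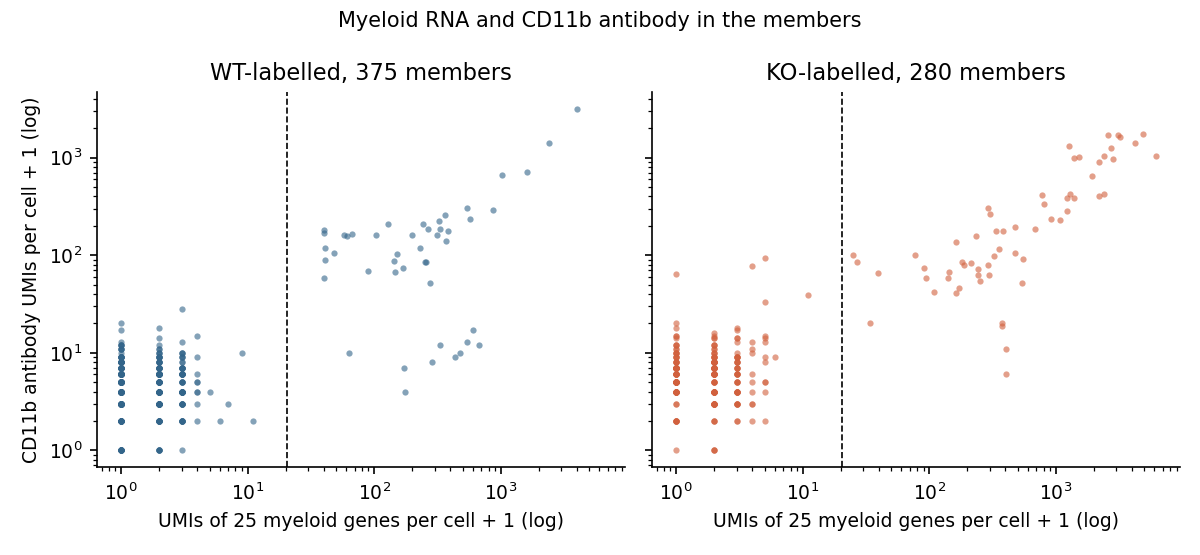
Each point is 1 member, with the UMIs of 25 myeloid genes on the horizontal axis and its CD11b antibody UMIs on the vertical axis, both plus 1 on log scales. The dashed line marks 20 UMIs: 46 WT-labelled and 61 KO-labelled members lie to its right, mostly with more CD11b antibody.

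The rule fixed CD3 and CD8 RNA in the members, so those markers do not check the label. The 7 T cell markers, CD3 chains included, summed to 5104 and 4950.3 CPM. Themis and Cd6, both signalling genes of T cells, were at 768 and 693 CPM and at 167 and 142 CPM, against 0 and 2.11 CPM and 0 and 0 CPM in NK cells (Ncr1 present, no CD3 chain). Ncr1, which defines NK cells, had 3 and 7 UMIs in 1 and 3 members. The 9 NK cell markers summed to 131 and 307 CPM, the 8 neutrophil markers to 75.6 and 181 CPM and the 11 B cell markers to 133 and 187 CPM. The neutrophil markers are among the 25 genes that had to be low in these members, so their sum does not check the label. The rule also set Cd79a, a B cell marker, and Cd4 to 0. The 7 gamma-delta T cell markers summed to 122 and 117 CPM, with a UMI in 21.0% and 16.9% of members. The 5 CD4 and regulatory T cell markers, which include the checkpoint gene Ctla4, summed to 513 and 498 CPM, with a UMI in 59.6% and 50.2%. At least 1 neutrophil marker UMI was found in 24.6% and 47.0% of members. The part of this remaining RNA in the differences between the libraries was not tested.

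Effector CD8 T cells were a smaller share of the KO-labelled library. All members made up 4.19% (3.79% to 4.63%) and 2.79% (2.48% to 3.13%) of filtered barcodes, a ratio of 0.665 (0.571 to 0.774). With little myeloid RNA the shares were 3.68% and 2.18% (ratio 0.593, 0.501 to 0.702). The gap was narrower within lymphocytes. All members were 20.4% and 16.5% of T cell barcodes (ratio 0.810, 0.704 to 0.932) and 70.1% and 59.3% of CD8 T cell barcodes (ratio 0.846, 0.771 to 0.929). Among barcodes with little myeloid RNA, members were 22.3% and 17.1% of T cell barcodes (ratio 0.766, 0.657 to 0.894). There they were 70.6% and 56.3% of CD8 T cell barcodes (ratio 0.797, 0.718 to 0.886). CD8 T cells with 0 UMIs of the effector genes were 14.4% and 18.4% of all CD8 T cell barcodes, with or without myeloid RNA (ratio 1.28, 0.967 to 1.70). All shares depend on the sort, and a larger share of one cell type lowers the others.

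Members ranged from cells close to a naive state to strongly armed effectors. By the sum of the effector genes, 75 and 67 members had 3 to 9 UMIs (22.8% and 30.6%), 78 and 48 had 10 to 29 (23.7% and 21.9%), and 176 and 104 had 30 or more (53.5% and 47.5%). Cells just inside the rule, with 3 UMIs (23 and 31 of all members), were set beside cells just outside it, with 2 UMIs (35 and 48 cells). Their shares were near each other for Lef1 and Nkg7 but not for every gene. Lef1, a transcription factor of naive T cells, was found in 73.9% and 83.9% of the cells inside and 80% and 93.8% of those outside. Nkg7, a granule protein gene that the rule reads, was found in 82.6% and 87.1% and in 88.6% and 91.7%. Cd44, an adhesion receptor gene, was in 43.5% and 38.7% of the cells inside and 25.7% and 25% of those outside. Ly6c2, a gene of the Ly-6C antigen, was in 52.2% and 35.5% and in 28.6% and 37.5%. A cell at the threshold was thus mostly one with Lef1 and a few Nkg7 UMIs.

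**Figure D2:**
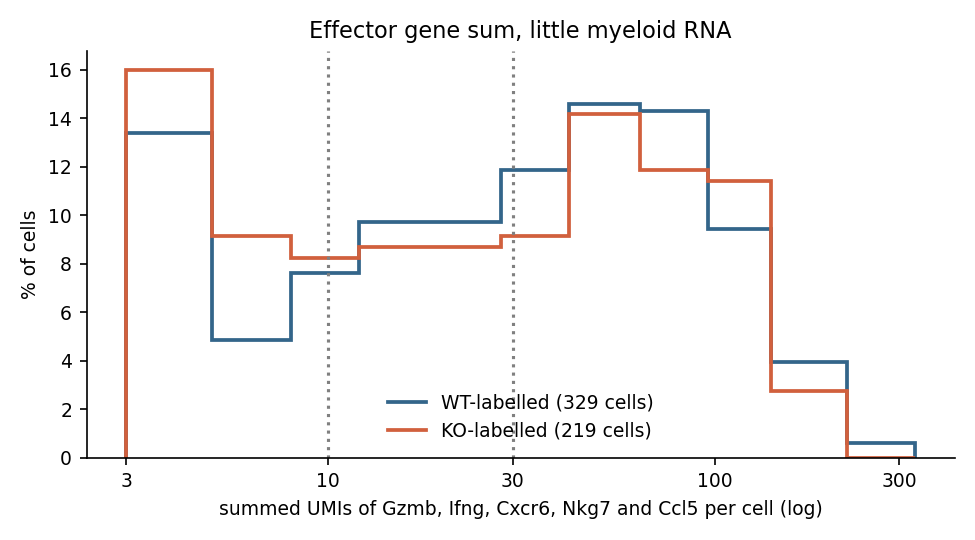
Summed UMIs of the 5 effector genes per member (horizontal, log scale) as the percentage of the 329 and 219 members with little myeloid RNA in each library (vertical). Dotted lines mark 10 and 30 UMIs, and cells with 30 or more make up 53.5% and 47.5% of these members.

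Naive genes were found in fewer cells at the armed end of this range. Lef1 was in 62.7% and 64.2% of cells with 3 to 9 effector gene UMIs and in 11.9% and 26.0% of those with 30 or more. Tcf7, the gene of the memory factor TCF-1, was in 66.7% and 74.6% and in 18.2% and 11.5%. Il7r, the receptor gene of the survival cytokine IL-7, was in 64% and 68.7% and in 26.7% and 17.3%. Median depth was 4161 and 3351 UMIs in the lower group and 3188.5 and 2937.5 in the upper. In cells thinned to 1000 UMIs, Lef1 was in 35.1% and 43.3% and in 4.55% and 12.5%.

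Activation and tissue genes ran the other way. Ctla4, a checkpoint receptor gene, was in 33.3% and 31.3% of cells with 3 to 9 effector gene UMIs and in 64.8% and 54.8% of those with 30 or more (thinned 21.6% and 22.4%, then 38.1% and 34.6%). Pdcd1, the gene of the checkpoint PD-1, went from 8% and 13.4% to 36.9% and 37.5% and Itga1 from 9.33% and 1.49% to 40.9% and 36.5%. S100a6, a calcium-binding protein gene, went from 38.7% and 34.3% to 92.0% and 92.3%. Gzma, the gene of granzyme A, was almost limited to the armed end, at 0% and 5.97% (0 of 75 WT-labelled cells, which allows a share of up to 4%) against 19.9% and 41.3%. In thinned cells these were 0% and 2.99% against 17.05% and 33.7% for Gzma and 5.41% and 0% against 19.3% and 22.1% for Itga1. B cells, taken as background without a filter for myeloid RNA, had median depths of 2433 and 2247 UMIs. They held Gzma in 1.05% and 2.03% of cells, Ctla4 in 6.87% and 7.21%, Itga1 in 0.866% and 2.25% and Lef1 in 4.64% and 6.53%.

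**Figure D3:**
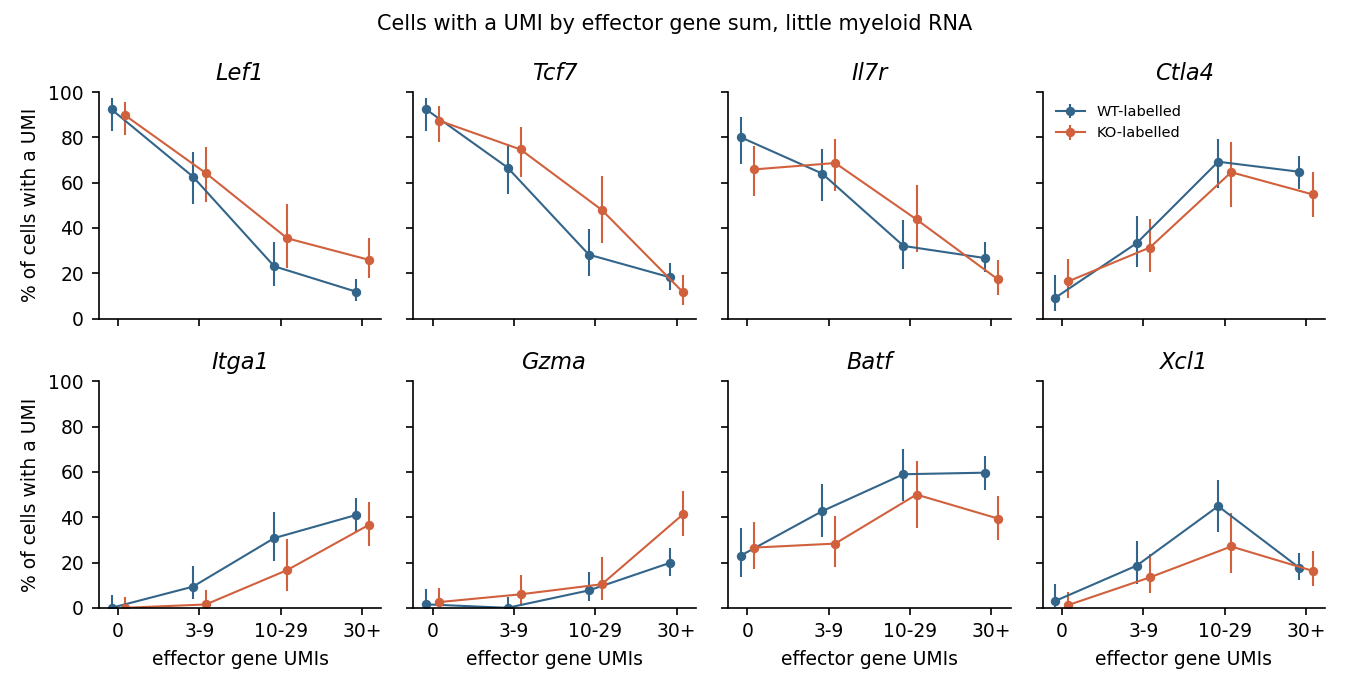
Percentage of cells with at least 1 UMI of each gene (vertical) by the effector gene sum of CD8 T cells with little myeloid RNA (horizontal), with 95% exact binomial intervals. Lef1 goes from 62.7% and 64.2% of cells with 3 to 9 UMIs to 11.9% and 26.0% with 30 or more, and Gzma from 0% and 5.97% to 19.9% and 41.3%.

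Some genes met in the same cells more often, and some less often, than their separate frequencies give. Gzmb and Ifng were both found in 71 and 39 cells, where the product of their frequencies gives 50.8 and 25.1. Gzmb and Gzma met in 28 and 38 cells (14.5 and 20.4 by frequency), and the tissue pair Itga1 and Cxcr6 in 80 and 38 (66.1 and 26.8). Itga1 and S1pr1, whose receptor lets T cells leave tissue, met in 15 and 6 cells (20.4 and 12.02 by frequency), and Itga1 and Klf2, a factor gene of circulating T cells, in 18 and 13 (33.2 and 20.6). The rule reads Gzmb, Ifng and Cxcr6, and cells differ in depth, which moves such counts.

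Set beside CD8 T cells with 0 UMIs of the effector genes (65 and 79 with little myeloid RNA), members were higher for killing, chemokine and checkpoint genes in both libraries. Of 6080 genes with at least 50 UMIs, 431 (7.09%) were at least 2-fold higher in the members of both libraries and 115 (1.89%) at least 2-fold lower. The rule chose the cells on genes of this contrast, so the counts are a description. At least 2-fold higher were 12 of 16 measured killing genes, 7 of 9 effector cytokines and chemokines, 15 of 18 effector transcription factors, 15 of 18 inhibitory receptor and exhaustion genes and 13 of 24 cytoskeleton and migration genes. At least 2-fold lower were 15 of 21 naive and central memory genes, with 0 higher.

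Ccl4, the gene of a chemokine that draws monocytes and T cells, was at 3586 and 2803 CPM in the members and had 2 and 4 UMIs in the comparison cells. Klrk1, the gene of the activating receptor NKG2D, was at 188 and 158 CPM, Itga1 at 152 and 120.0 CPM and Fasl, the gene of a death ligand, at 83.8 and 96.5 CPM. Each of these had 0 UMIs in the comparison cells of both libraries. On the lower side, Ccr7 was at 59.1 and 87.4 CPM against 373 and 459 CPM, and Ccr9, a gut-homing receptor gene, at 12.3 and 16.96 CPM against 105 and 153 CPM. Pik3ip1, an inhibitor of PI3 kinase signalling, was at 18.9 and 20.9 CPM against 145 and 161 CPM.

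NK cells share the killing genes with the members, at other levels. Of 7319 genes, 323 (4.41%) were at least 2-fold higher in the members than in NK cells of both libraries, and 419 (5.72%) at least 2-fold lower. Of the killer lectin-like receptors and their adaptors, 16 of 18 were 2-fold lower in the members. Of the inhibitory receptor and exhaustion genes, 10 of 19 were 2-fold higher. Pdcd1 was at 134 and 143 CPM in the members and 1.32 and 0 CPM in NK cells, and Lag3, another checkpoint gene, at 159 and 117 CPM and 1.32 and 2.11 CPM.

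The killing genes split in this contrast. Of 16 measured genes of the killing list, which leaves out Gzmb, 2 were at least 2-fold higher in the members and 5 at least 2-fold lower. Prf1, the gene of perforin, was at 212 and 245 CPM in the members against 1248 and 1396 CPM in NK cells, and Gzma at 513 and 1053 CPM against 10489 and 11334 CPM. Gzmb was at 811 and 1049 CPM against 1101 and 1195 CPM. The rule chose the members, but not the NK cells, on Gzmb, so its nearer levels describe the choice. Tbx21 and Eomes, transcription factor genes that both lineages use, were at 122 and 123 CPM against 349.9 and 395 CPM and at 33.7 and 33.9 CPM against 316 and 335 CPM.

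**Figure D4:**
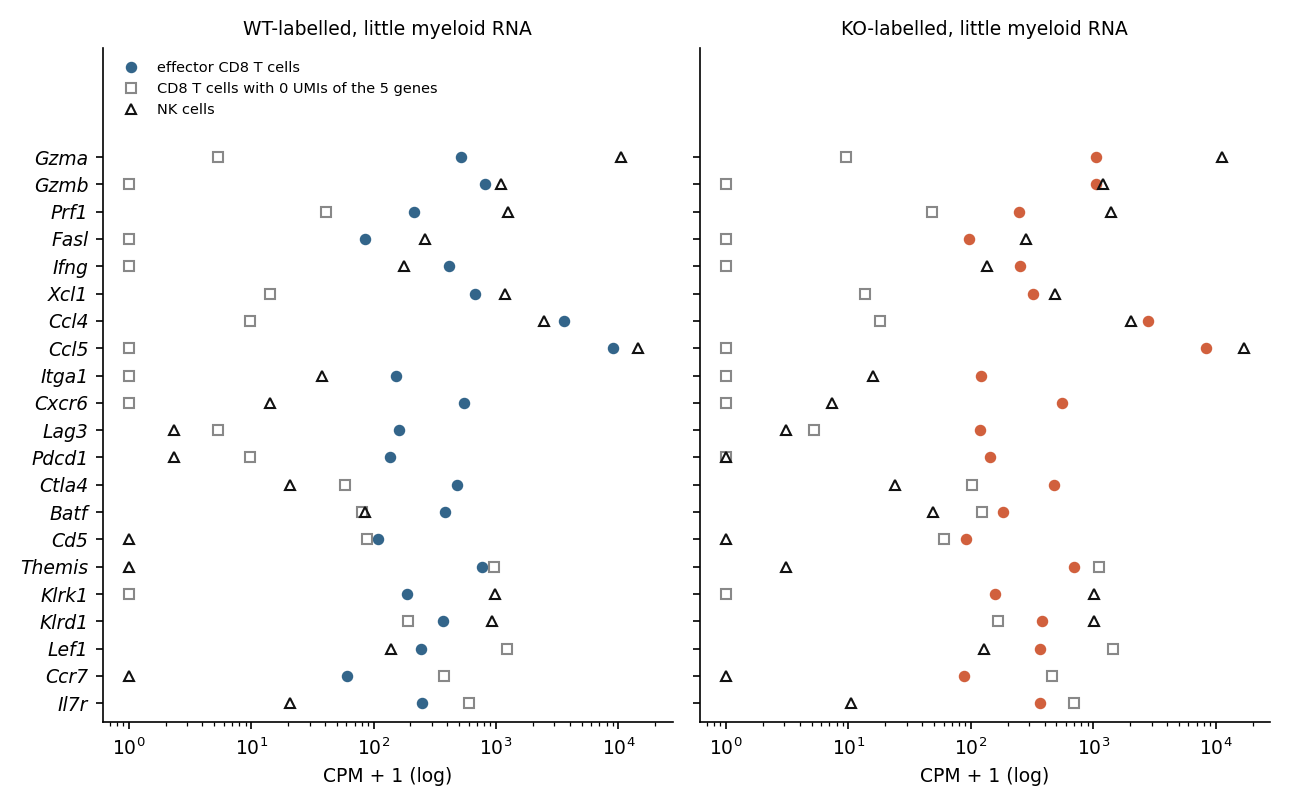
CPM plus 1 on a log scale (horizontal) for the named genes in effector CD8 T cells, CD8 T cells with 0 UMIs of the effector genes and NK cells, all with little myeloid RNA, for each library. Gzma lies at 513 and 1053 CPM in effector cells and 10489 and 11334 CPM in NK cells, and Pdcd1 at 134 and 143 CPM and 1.32 and 0 CPM.

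Between the libraries, genes of myeloid cells were among those that differed most in the sum over all members. Of 9479 genes with at least 20 UMIs, 632 (6.67%) were at least 2-fold higher and 409 (4.31%) at least 2-fold lower in the KO-labelled members. With little myeloid RNA these were 163 (2.05%) and 179 (2.26%) of 7935 genes. Ccl17, a dendritic cell chemokine gene, had 19 and 264 UMIs in all members and 2 and 1 with little myeloid RNA. Ifitm3, an antiviral membrane protein gene, had 338 and 2498 UMIs in all members and 9 and 15 with little myeloid RNA. The median log2 ratio over all genes was -0.094 in all members and 0.012 with little myeloid RNA. The share of these genes above 0 was 41.1% in all members. With little myeloid RNA it was 51.0%.

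Among killing genes, granzyme A and 2 granzyme inhibitors were higher in the KO-labelled members. Of 18 listed genes 17 had at least 20 UMIs. At least 2-fold higher were 3 and at least 2-fold lower 0, beside 2.05% and 2.26% of all genes. The median log2 ratio was 0.13. Over all members 7 listed genes were above and 10 below 0 (median -0.17). Past 2-fold there were 0 higher and 1 lower, beside 6.67% and 4.31% of all genes. Gzma, whose protease enters the target cell, had 625 and 807 UMIs in 41 and 52 cells, or 513 and 1053 CPM. Its log2 ratio was 1.04 (0.88 to 1.19). It was found in 12.5% and 23.7% of cells, and in 10.1% and 18.3% of cells thinned to 1000 UMIs. The log2 ratio was 1.52 without the 5 cells per library with most Gzma UMIs, 1.22 in cells with 30 or more effector gene UMIs, and 0.46 in all members.

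Serpinb9 and Serpinb6b encode inhibitors that shield killer cells from granzymes. Serpinb9 had 53 and 74 UMIs in 38 and 46 cells (log2 ratio 1.15, 0.62 to 1.69) and Serpinb6b 38 and 58 UMIs in 26 and 36 cells (log2 ratio 1.28, 0.66 to 1.91). Serpinb9 was present in 31.7% and 40.4% of cells with Gzma, and in 8.68% and 14.97% of cells without it. Gzmb was at 811 and 1049 CPM (log2 ratio 0.37, 0.24 to 0.51), and at a log2 ratio of 0.041 without the 5 cells per library with most Gzmb UMIs. Over all members it was below 0 (-0.51, -0.64 to -0.38), so its side of 0 turned with the members taken. The rule reads Gzmb. Over all members Serpinb9 was at 0.44 and Serpinb6b at 0.71. For Prf1 (212 and 245 CPM, log2 ratio 0.21, -0.068 to 0.49) and Fasl (83.8 and 96.5 CPM, log2 ratio 0.20, -0.25 to 0.65) the interval held 0. NK cells also express these genes, with Serpinb9 at 688 and 701 CPM there. Without members that held a Trdc, Ncr1 or Klrb1c UMI, the log2 ratios were 1.04 for Gzma, 1.04 for Serpinb9 and 0.99 for Serpinb6b.

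Promoters of Gzma, Gzmb, Ifng and Batf are shown as examples of genes in the comparison of the libraries. The granzymes lay above 0 and the other 2 below with little myeloid RNA, and over all members Gzmb lay below 0 too (-0.51). Each window runs from 250 bases before to 50 bases after the RefSeq gene start (GRCm38.p6), on the strand of the gene. Capitals mark, on either strand, the RUNX core TGTGGT, the T-box core GGTGTG, the AP-1 site TGANTCA and the CRE core TGACGT. Among 32851 windows of this length, 16.8%, 19.0%, 7.81% and 7.51% held them. The windows lie at chr13:113100932-113101231 (Gzma, minus strand), chr14:56262285-56262584 (Gzmb, minus strand), chr10:118440796-118441095 (Ifng, plus strand) and chr12:85686470-85686769 (Batf, plus strand).
Gzma: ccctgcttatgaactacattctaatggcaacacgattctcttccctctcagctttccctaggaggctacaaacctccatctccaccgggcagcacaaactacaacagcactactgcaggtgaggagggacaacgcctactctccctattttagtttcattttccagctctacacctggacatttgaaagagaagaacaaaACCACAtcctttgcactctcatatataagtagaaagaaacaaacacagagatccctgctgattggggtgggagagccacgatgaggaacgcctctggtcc
Gzmb: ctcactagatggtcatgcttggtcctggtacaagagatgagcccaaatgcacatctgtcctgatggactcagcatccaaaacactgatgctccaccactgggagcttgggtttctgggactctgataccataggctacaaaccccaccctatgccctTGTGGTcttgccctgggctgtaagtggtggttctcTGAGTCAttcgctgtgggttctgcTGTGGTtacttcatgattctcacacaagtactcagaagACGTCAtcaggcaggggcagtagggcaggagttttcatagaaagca
Ifng: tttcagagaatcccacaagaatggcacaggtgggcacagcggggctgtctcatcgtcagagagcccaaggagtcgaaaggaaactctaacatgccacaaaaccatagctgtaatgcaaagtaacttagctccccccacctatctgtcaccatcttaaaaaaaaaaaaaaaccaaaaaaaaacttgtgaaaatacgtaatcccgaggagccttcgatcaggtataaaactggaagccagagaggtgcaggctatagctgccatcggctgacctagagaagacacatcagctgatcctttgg
Batf: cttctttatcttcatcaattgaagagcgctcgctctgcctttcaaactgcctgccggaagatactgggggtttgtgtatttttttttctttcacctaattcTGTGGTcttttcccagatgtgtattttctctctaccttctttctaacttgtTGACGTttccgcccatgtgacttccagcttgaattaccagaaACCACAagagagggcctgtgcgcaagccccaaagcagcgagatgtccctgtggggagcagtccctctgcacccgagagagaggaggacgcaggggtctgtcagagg
The Gzma window held 1 RUNX core, and the Gzmb window 2 RUNX cores, 1 AP-1 site and 1 CRE core. The Batf window held 2 RUNX cores and 1 CRE core. In the Ifng window 0 of these letters matched. No binding was measured, so the matches are a description of the letters.

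Cytokine and chemokine genes were mostly lower in the KO-labelled members. Of 16 listed genes 11 were measured, 9 below and 2 above 0, with a median log2 ratio of -0.55. At least 2-fold lower were 2 (Xcl1 and Ccl1) and at least 2-fold higher 0, beside 2.26% and 2.05% of all genes. Of all genes 51.0% were above 0. Over all members 4 listed genes were above and 9 below 0 (median -0.55), where 41.1% of all genes were above 0. Ifng is one of the genes that the rule and the effector gene sum read, so its values are a description. Ifng, the hallmark cytokine of these cells, had 503 and 192 UMIs in 144 and 64 cells (43.8% and 29.2%), with a log2 ratio of -0.72 (-0.97 to -0.48). In thinned cells it was found in 25% and 15.5%. The log2 ratio was -0.37 in cells with 30 or more effector gene UMIs and -1.53 in all members. Ifng was in 43.6% and 25% of cells with 10 to 29 effector gene UMIs and in 57.4% and 45.2% of those with 30 or more.

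Xcl1, whose product attracts cross-presenting dendritic cells, was at 674 and 322 CPM from 820 and 247 UMIs in 80 and 39 cells (log2 ratio -1.06, -1.27 to -0.86). The direction depended on the cells. Xcl1 was at 1683 and 334 CPM in cells with 10 to 29 effector gene UMIs and at 269 and 472 CPM in those with 30 or more, where the log2 ratio was 0.81. The most in 1 cell was 157 and 56 UMIs. In NK cells Xcl1 was at 1183 and 486 CPM.

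Other secreted factors were below 0 as well. Ccl3 was at 655 and 407 CPM (log2 ratio -0.69, -0.88 to -0.50) and Ccl4 at 3586 and 2803 CPM (-0.36, -0.43 to -0.28), with -0.26 and -0.030 in cells with 30 or more effector gene UMIs. Tnf, the gene of tumour necrosis factor, had few UMIs, 33 and 11, and its interval held 0 (log2 ratio -0.92, -2.05 to 0.10). Ccl1 had 152 and 6 UMIs (log2 ratio -4.00, -5.46 to -2.84), of which 145 lay in 1 WT-labelled cell.

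Of 19 transcription factors of effector differentiation, all measured, 12 were below and 7 above 0 (median log2 ratio -0.067). Batf alone was past 2-fold, beside 4.31% of all genes, of which 51.0% were above 0. Over all members 1 factor was above and 18 were below 0 (median -0.61), with 0 past 2-fold higher and 3 lower. Of all genes there, 41.1% were above 0, 6.67% past 2-fold higher and 4.31% lower. Batf is an AP-1 family factor that effector differentiation requires. It had 463 and 140 UMIs in 183 and 84 cells, or 380.3 and 183 CPM, and a log2 ratio of -1.06 (-1.34 to -0.78). Batf was found in 55.6% and 38.4% of cells, in 26.8% and 15.1% of thinned cells and in 11.02% and 10.7% of B cells. Over all alternatives computed, all members included, its log2 ratio lay between -1.33 and -0.95.

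Batf was in fewer KO-labelled cells at each level of the effector genes. It was found in 42.7% and 28.4% of cells with 3 to 9 UMIs, in 59.0% and 50% with 10 to 29 and in 59.7% and 39.4% with 30 or more. After thinning these were 17.6% and 10.4%, 32.1% and 22.9% and 28.4% and 14.4%. In CD8 T cells with 0 effector gene UMIs Batf was at 79.0 and 123 CPM (18 and 29 UMIs), and in NK cells at 84.5 and 48.5 CPM. Batf and Ifng were found together in 101 and 33 cells (80.1 and 24.5 by frequency).

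Several other factors were lower by less than 2-fold. Maf, which promotes Il10 expression, was at 167 and 97.8 CPM (log2 ratio -0.77, -1.17 to -0.38) and Irf8, an interferon regulatory factor gene, at 294 and 199.6 CPM (-0.56, -0.84 to -0.28). Bhlhe40, a regulator of cytokine production, was at 186 and 127 CPM (-0.56, -0.92 to -0.21), with 0.050 in cells with 30 or more effector gene UMIs. The intervals of Tbx21 (-0.38 to 0.40), Eomes (-0.76 to 0.75) and Id2, an inhibitor of E proteins (-0.033 to 0.24), held 0.

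**Figure D5:**
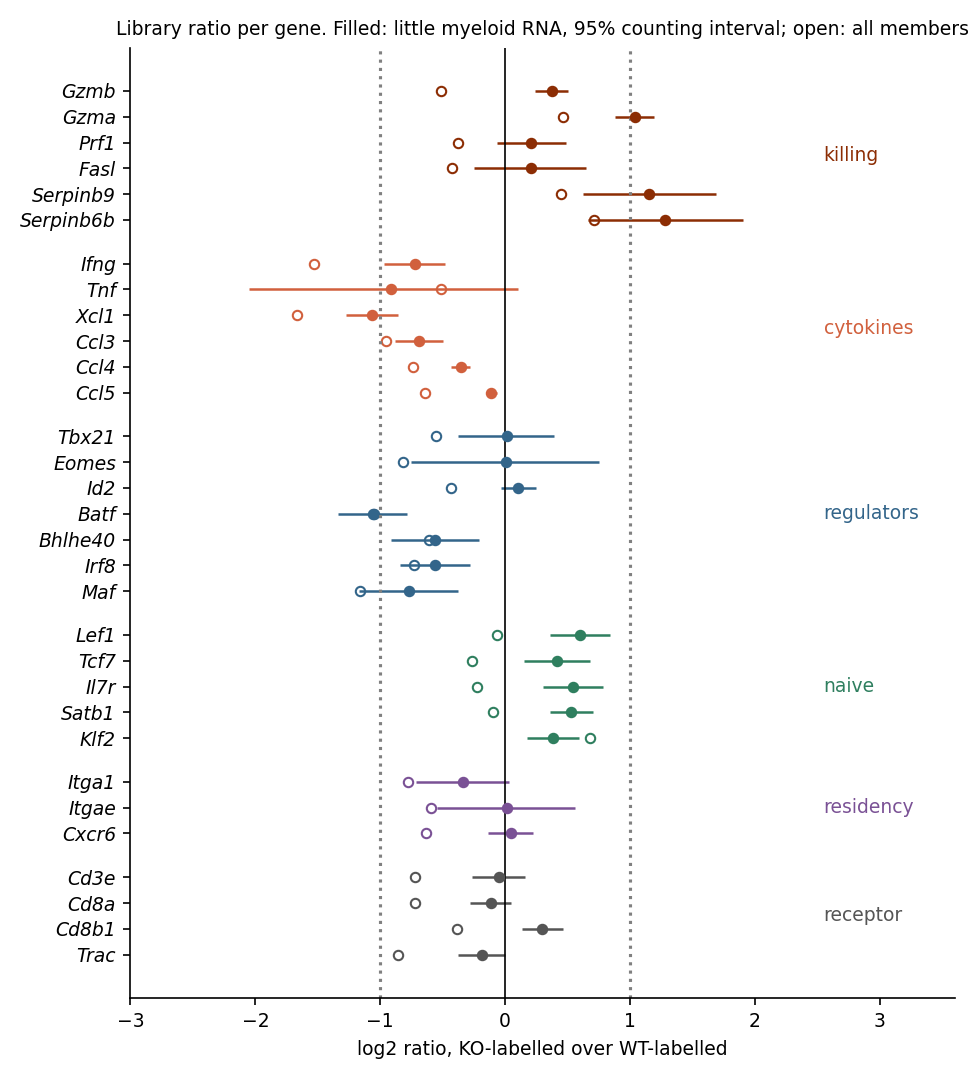
Log2 ratio of KO-labelled to WT-labelled CPM (horizontal) for the named genes in members with little myeloid RNA (filled, with 95% counting intervals) and in all members (open). Dotted lines mark 2-fold. Filled, Batf lies at -1.06 and Gzma at 1.04.

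The direction of naive and central memory genes depended on the members taken. Leaving out the myeloid barcodes, of 22 listed genes 21 were measured, 18 above and 3 below 0 (median log2 ratio 0.30), and 0 were past 2-fold. Over all members 7 were above and 15 below 0 (median -0.13), where Lef1 was at -0.062, Il7r at -0.23 and Satb1 at -0.094 on the log2 scale. The share of all genes above 0 was 51.0% with little myeloid RNA and 41.1% over all members. In the members with little myeloid RNA, Lef1 was at 242 and 368 CPM (log2 ratio 0.60, 0.36 to 0.84), Il7r at 249.7 and 364 CPM (0.54, 0.30 to 0.78) and Satb1, a chromatin organiser, at 492 and 711 CPM (0.53, 0.36 to 0.70). Dapl1, found in naive CD8 T cells, went the other way at 93.6 and 57.4 CPM. The share of cells with 3 to 9 effector gene UMIs was also larger in the KO-labelled library. In cells with 30 or more, the median of the list was 0.17, with Lef1 at 0.63 and Il7r at -0.76.

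Tissue residency genes lay on both sides of 0. Of 20 listed genes 14 were measured, 5 above and 9 below 0 (median log2 ratio -0.21). Past 2-fold in either direction were 0, beside 4.31% of all genes. Over all members 7 listed genes were above and 10 below 0 (median -0.40). Past 2-fold there were 3 higher and 1 lower, beside 6.67% and 4.31% of all genes. Itga1 was at 152 and 120.0 CPM (-0.72 to 0.028 on the log2 scale), and Itgae, which encodes the integrin CD103, at 60.8 and 61.3 CPM. Cxcr6, which the rule reads, was at 541 and 558 CPM. Adam19, a membrane protease gene with 0 UMIs in NK cells, was at 389 and 308 CPM.

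Of 21 circulating effector genes 16 were measured, 11 above and 5 below 0 (median log2 ratio 0.24). Over all members 15 were above and 5 below 0 (median 0.32), with 7 past 2-fold higher and 0 lower. Of all genes there, 41.1% were above 0, 6.67% past 2-fold higher and 4.31% lower. With little myeloid RNA 51.0% of all genes were above 0 and 2.05% past 2-fold higher. Klrg1, the gene past 2-fold with little myeloid RNA, was rare, with 3 and 19 UMIs in 3 and 11 cells (log2 ratio 3.33, 1.57 to 5.73). Gzma was found in 2 and 8 of those cells. S1pr5 had 6 and 13 UMIs, too few in sum to be counted with the list. Rap1gap2, a GTPase regulator gene, was at 41.1 and 79.6 CPM (0.95, 0.39 to 1.52), and Cx3cr1, a chemokine receptor gene, at 70.6 and 65.2 CPM (-0.12, -0.65 to 0.40). NK cells express Klrg1 and Rap1gap2 too, at 121 and 152 CPM and 362 and 403 CPM.

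Of 11 measured killer lectin-like receptor and adaptor genes, the adaptor genes Tyrobp and Fcer1g were past 2-fold higher, beside 2.05% of all genes. Tyrobp had 12 and 47 UMIs in 11 and 20 cells and Fcer1g 20 and 57 UMIs in 10 and 13 cells, with log2 ratios of 2.64 and 2.18. Without members that held a Trdc, Ncr1 or Klrb1c UMI the ratios were 0.97 and 0.51. NK and myeloid cells use both adaptors. Klrd1, the gene of the CD94 chain, was at 366 and 379.6 CPM, Klrk1 at 188 and 158 CPM and Klrc1, the gene of the inhibitory receptor NKG2A, at 179 and 155 CPM.

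Most checkpoint genes lay within 2-fold. Of 19 listed genes, all measured, 7 were above and 12 below 0 (median log2 ratio -0.10). Over all members 6 were above and 13 below 0 (median -0.34), with 0 past 2-fold higher and 5 lower. Of all genes there, 41.1% were above 0, 6.67% past 2-fold higher and 4.31% lower. Without the myeloid barcodes Ctla4 was at 483 and 481 CPM (-0.0049, -0.20 to 0.19), Pdcd1 at 134 and 143 CPM (0.100, -0.26 to 0.46) and Havcr2, the gene of TIM-3, at 91.2 and 66.5 CPM (-0.45, -0.96 to 0.036). Lag3 was at 159 and 117 CPM (-0.44, -0.82 to -0.073), and Tox, a factor gene linked to long stimulation, at 1550 and 1270.5 CPM (-0.29, -0.40 to -0.17). The genes past 2-fold had few UMIs, 18 and 23 for Cd160 (higher) and 44 and 13 for Cd200 (lower).

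T cell receptor and stimulation genes moved with the myeloid RNA. Of the 20 T cell receptor genes 19 were below 0 in all members (median log2 ratio -0.51) and 8 with little myeloid RNA (median 0.066). Of all tested genes, 5582 of 9479 were below 0 in all members. With little myeloid RNA 3888 of 7935 were. Trac, the receptor alpha constant gene, went from -0.86 to -0.19. Of the immediate early genes, which follow recent stimulation, 25 of 35 were above 0 in all members (median 0.33) and 10 of 32 with little myeloid RNA (median -0.16). Junb was at 593 and 438 CPM and Ier5 at 83.8 and 41.7 CPM in the latter.

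Chaperone genes were higher, at 9 of 11 measured genes (median log2 ratio 0.30), with 2 past 2-fold. Of all genes with little myeloid RNA, 51.0% were above 0. At least 2-fold higher were 2.05%. Over all members 10 of 12 chaperone genes were above 0 (median 0.21), with 0 past 2-fold, and 41.1% of all genes were above 0. Hspa8, a constitutive chaperone gene, was at 706 and 1147 CPM (0.70, 0.56 to 0.84) and Hsph1 at 45.2 and 102 CPM (1.17, 0.65 to 1.70). The same direction was seen in other cells: Hspa8 was at 619 and 964 CPM in NK cells and 715 and 931 CPM in CD8 T cells with 0 effector gene UMIs. Cmss1, a gene linked to ribosome formation, was at 2401 and 1314 CPM in the members, 2468 and 1179 CPM in NK cells and 2807.5 and 1309 CPM in the CD8 T cells without effector gene UMIs.

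Of 40 measured cell cycle genes 28 were above 0 (median log2 ratio 0.27), with 6 past 2-fold higher and 0 lower. For all genes the shares were 51.0% above 0, 2.05% past 2-fold higher and 2.26% lower. Few cells carried the cell cycle genes. Mki67, a marker of dividing cells, was in 26 and 17 members (7.90% and 7.76%). Stmn1, a tubulin regulator gene, was in 19 and 22. In cells with 30 or more effector gene UMIs the median of the list was -0.063. Over all members 28 of 43 cell cycle genes were above 0 (median 0.20), with 4 past 2-fold higher and 0 lower. For all genes over all members the shares were 41.1%, 6.67% and 4.31%. Interferon lists lay slightly below 0, at medians of -0.13 for 43 measured type I genes and -0.12 for 34 interferon-gamma and MHC class I genes. Over all members these were 0.16 and -0.22. The medians were 0.0075 for 16 costimulatory genes, -0.046 for 13 migration receptors, 0.085 for 22 cytokine receptors, 0.079 for 20 glycolysis genes and 0.045 for 24 cytoskeleton genes. Over all members they were, in the same order, -0.42, 0.17, 0.031, 0.20 and 0.35. The type 2 and type 17 list had 6 measured genes, all above 0 (median 0.47). Over all members 4 of its 7 measured genes were above 0 (median 0.15).

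Plaur RNA was found in the members of the KO-labelled library. It had 9 and 135 UMIs in 8 and 66 cells (2.43% and 30.1%), at most 2 and 5 in 1 cell, and a log2 ratio of 4.57 (3.61 to 5.73). Over all members it had 416 and 652 UMIs, with a log2 ratio of 0.55 (0.37 to 0.73). In thinned cells with little myeloid RNA it was found in 0.915% and 12.8%. B cells, on which no filter for myeloid RNA was set, held it in 34.3% and 45.6% of cells at 268 and 297 CPM. Within the members it was at 10.1 and 283 CPM in cells with 3 to 9 effector gene UMIs and 8.16 and 119.5 CPM in those with 30 or more. In CD8 T cells with none it was at 21.9 and 348 CPM. A 3′ tag can lie outside a deleted part of a gene, so this level does not check the labels.

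Plaur lies on chromosome 7 at 24460937 to 24475970 (GRCm38.p6). Irgc1, a GTPase gene beside it at 24431919 to 24445682, had 0 and 20 UMIs in 0 and 19 members, and B cells of both libraries held it, at 19.7 and 37.6 CPM. Among 4 measured genes of the plasminogen system all were above 0, and of 10 measured genes in the list of Hprt and genes near Plaur 4 were. Both lists include Plaur itself, and 51.0% of all genes were above 0. Over all members 8 of 10 genes of the plasminogen list were above 0. In the list near Plaur 7 of 13 were, beside 41.1% of all genes. Hprt, a purine salvage gene, was at 129 and 202 CPM (0.65, 0.32 to 0.98).

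Of the 5 antibodies, Ly-6C is aimed at a protein that effector CD8 T cells carry, and CD11b marked the myeloid RNA. Their tags, by which the counts were made, are shown because each antibody value rests on them.
CD11b: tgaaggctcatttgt
Ly-6C: aagtcgtgaggcatg
Median Ly-6C counts were 11 and 20 UMIs in members with little myeloid RNA and 9 and 17 in B cells, and so higher in the KO-labelled library in both. As a log2 ratio of means to B cells, all members stood at 0.79 and 0.94 in the respective libraries, and those with little myeloid RNA at 0.26 and -0.088. By medians the latter stood at 0.29 and 0.23. The B cells had no filter for myeloid RNA. Over CD8 T cells with 0 effector gene UMIs, both sets with little myeloid RNA, the log2 ratio of means was 0.26 and 0.41. Ly6c2, a gene of this antigen, was at 289.9 and 233 CPM (-0.31, -0.58 to -0.049), and Itgam, the gene of CD11b, had 9 and 10 UMIs. Mean CD14 antibody counts were 2.87 and 2.54 UMIs in members with little myeloid RNA and 3.11 and 2.57 in B cells.

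T cell receptor segments were read in few members. A Trbv segment was found in 33 of 329 WT-labelled (10.0%, 7.01% to 13.8%) and 23 of 219 KO-labelled members (10.5%, 6.77% to 15.3%), each with 1 segment. The most frequent were Trbv12-1 in 9 and Trbv12-2 in 7 cells. These segments are near-identical, and how the counting split their reads is uncertain. In each library 12 of 35 segments were seen.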

How the data were processed

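RNA and antibody tags of lung CD45.2 cells were measured in 1 library per genotype, and each matrix was tied to its samples by its library name. The authors deposited UMI counts for each barcode, of genes and of antibody tags, without normalization. The submitters' processing notes name Cell Ranger 7.0.0 and 7.1.0 and mm10, and the matrix header names version 7.0.0. Filtered barcodes held 42815121 and 47377589 UMIs (medians 3288.5 and 2886) over 32285 genes, and the members 1696525 and 1811142.

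UMIs were summed over members and given as CPM with exact Poisson intervals. Log2 ratios have exact conditional binomial intervals (0.5 UMI for 0), shares Clopper-Pearson and share ratios Katz intervals. Only the log2 ratio intervals were tried on simulated counts. These were Poisson counts, without the gathering of UMIs in single cells that real genes can show. Poisson and Clopper-Pearson bounds were checked against known values, and Katz intervals were not checked. Doublets called by Scrublet (scanpy 1.11.5, expected 8%) were kept and left out as an alternative. A gene counted as past 2-fold at 20 UMIs or more, or 50 beside other cells. Genes named are those of the rule, Plaur and the antibody targets, the 10 highest and 10 lowest by the interval bound nearest 0 in each comparison, and from each of 22 lists 3 per side and the 5 most abundant. Named outside it, after their values were seen, were Bhlhe40, Cx3cr1, Mki67, Ncr1, S100a9, S1pr1, S1pr5 and Tcf7. The members and lists were chosen with earlier results of these data known, and the limit of 20 myeloid UMIs after the data were seen.

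Alternatives were other filters and effector gene sums, thinning to 1000 UMIs, TMM factors (edgeR 4.0.16), DESeq2 1.42.0 size factors, other totals and other antibody scales. Promoters came from RefSeq (GRCm38.p6), which matched 87 of 114 named genes. Of the list symbols, 4 matched no row and are not analysed here. Software was R 4.3.3, matplotlib 3.10.9, SciPy 1.17.1 and pandas 2.3.3 under Python 3.11.15.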

Additional observations from a re-analysis of the deposited data

How the results depend on the processing

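No paired analysis was possible because each genotype has 1 library. The log2 ratio of the share of filtered barcodes (-0.59) stayed between -0.75 and -0.49 under 9 alternatives. It was -0.30 of T cell barcodes, -0.24 of CD8 T cell barcodes and -0.93 for members with little myeloid RNA and 30 or more effector gene UMIs. The counts of genes past 2-fold over all members were 632 and 409, higher first. They were 1648 and 2583 at 1 UMI or more, 387 and 172 at 50 or more and 175 and 183 in thinned cells. With little myeloid RNA they were 163 and 179, with TMM factors added 163 and 191 and thinned 102 and 181. TMM factors gave 765 and 282 and DESeq2 size factors 724 and 327 over all members, where the log2 of the TMM factor ratio, which is subtracted from each log2 ratio and so raises it, was -0.099. The Ly-6C antibody difference (0.15) was -0.11 by centred log-ratios, -0.043 by medians, 1.22 by raw means and 0.22 without doublet calls. Over CD8 T cells with 0 effector gene UMIs it was 0.71. For members with little myeloid RNA it was -0.35 over the unfiltered B cells. It was 0.15 over CD8 T cells with 0 effector gene UMIs, both sets with little myeloid RNA. Of 114 named genes 83 kept the sign of all members with little myeloid RNA, and of 21 list medians 12. Signs opposite to all members are listed here only for named genes past 2-fold over all members. Counting every named gene, 5 had the other sign without the 5 highest cells per library of the gene. At an effector sum of 5 or more 3 did. Among the listed genes, Hdac9 was at 0.47 without its 5 highest cells and 0.96 at an effector sum of 5. With little myeloid RNA, Pglyrp1 was at -1.62 and Ccl17 at -0.33, with TMM factors -1.62 and -0.34, thinned -2.17 and -0.42, at 30 or more effector gene UMIs -1.85 and -0.13, and without cells with a Trdc, Ncr1 or Klrb1c UMI -1.52 and -0.29. Also with little myeloid RNA, Pglyrp1 and Ifitm3 were at -2.17 and -1.32 without their 5 highest cells, Itgam and Lag3 at -0.0022 and 0.11 when thinned, and Xcl1 and Ccl1 at 0.81 and 3.19 at 30 or more effector gene UMIs. Leaving out the myeloid barcodes removes cells and lowers the number of genes tested. Otherwise the cause was not tested. All alternatives that leave out the myeloid barcodes were chosen after seeing the data.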
